A study of Mus musculus with 2 samples.

Results

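The acid-secreting machinery of the gastric parietal cell was followed in the E14.5 mouse stomach through 10 genes, named by symbol, out of 43346 genes in the deposited tables. The genes were Atp4a, Atp4b, Kcnq1, Kcne2, Slc26a9, Car2, Aqp4, Clic6, Gif and Esrrg, and all 10 were found in both libraries. The single group was whole stomach of strain B6NCrl embryos at 14.5 days of gestation, with no transgene, mutation or treatment named in the labels. It held 2 libraries of total RNA, biological replicates 1 and 2, each from 10 ng of RNA and, per the labels, from the stomach of 1 pup. The labels also give the sex as a pool of males and females and 1 donor code for both, neither of which goes with 1 separate pup per library, so how independent the animals were is not known. No second condition was given, so no test between conditions was possible. All values below describe these libraries.

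Parietal cells pump protons into the stomach lumen in exchange for potassium with the H,K-ATPase, a heterodimer of a catalytic alpha subunit and a glycosylated beta subunit. Luminal potassium is returned by an apical channel of KCNQ1 with the subunit KCNE2, chloride leaves with the acid, and carbonic anhydrase supplies protons and bicarbonate from carbon dioxide and water. In the adult the pump rests in tubulovesicles that fuse with the apical membrane when histamine, gastrin or acetylcholine stimulates the cell. Acid secretion in the mouse develops late in gestation and after birth, so the embryonic stomach is sampled here before the gland is mature.

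Replicate 1 held 25072242 expected counts, 23668322 of them on genes, and replicate 2 held 25599910, with 23882647 on genes. Levels are given in TPM, a unit corrected for transcript length and scaled by the authors to a fixed total that counts in spike-in RNAs (12.1% of TPM in replicate 1 and 14.2% in replicate 2). The epithelium was present in both stomachs: all 8 epithelial markers reached 1 TPM, with summed levels of 2040 TPM in replicate 1 and 1790 TPM in replicate 2. The libraries differed widely in pancreas markers, whose summed level over 13 genes was 681 TPM in replicate 1 and 51.6 TPM in replicate 2. In whole tissue, fewer cells of a type and less RNA per cell cannot be told apart.

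Transcripts of the machinery were present at low to moderate levels, led by carbonic anhydrase. Of the 10 genes, 9 reached 1 TPM in both libraries, the exception being Gif. The same threshold was met by 34.9% of all genes and by 61.8% of the 21474 protein-coding genes. The order of mean levels was Car2 (57.2 TPM), Atp4b (12.5 TPM), Esrrg (9.68 TPM), Clic6 (8.35 TPM), Aqp4 (4.62 TPM), Kcnq1 (3.82 TPM), Slc26a9 (3.49 TPM), Atp4a (1.56 TPM), Kcne2 (1.49 TPM) and Gif (0.71 TPM). The ranges of the libraries overlapped between Esrrg and Clic6, between Aqp4 and Kcnq1, between Kcnq1 and Slc26a9, and between Atp4a and Kcne2, so these neighbours were not separated. Among protein-coding genes, Car2 lay above 88.5% of genes in replicate 1 and 88.0% in replicate 2, whereas Gif lay above 36.7% and 32.7%. The other members lay above 38.7% to 62.2% of protein-coding genes in replicate 1 and above 38.9% to 62.8% in replicate 2. The summed level of the 10 genes was 111 TPM in replicate 1 and 96.3 TPM in replicate 2, and without Car2 it was 50.8 and 41.7 TPM.

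**Figure D1:**
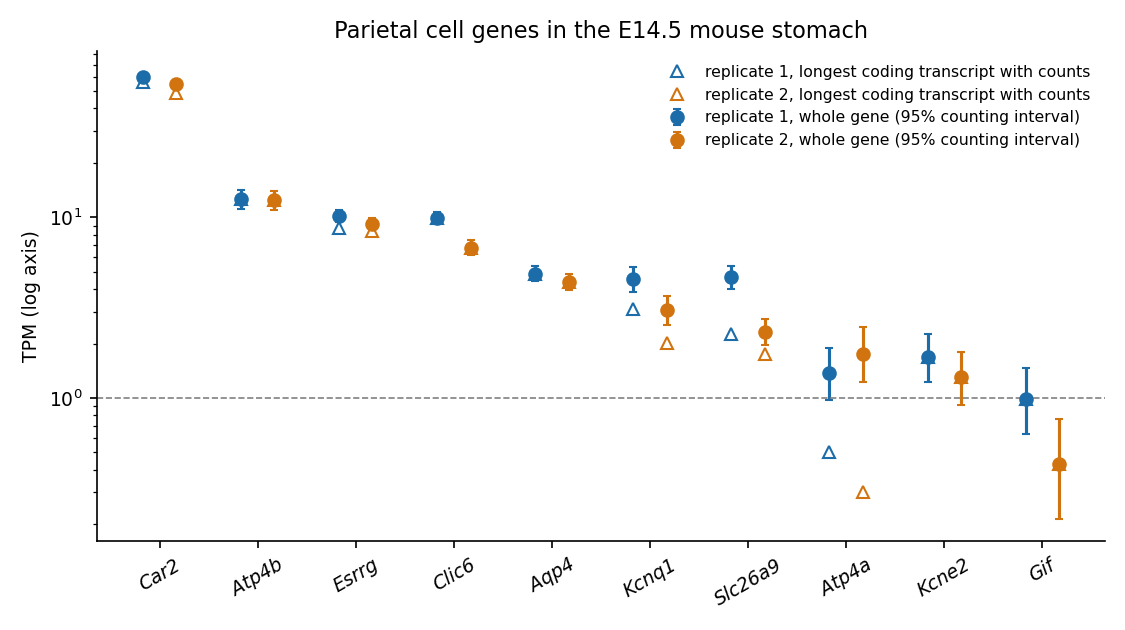
Level of each gene (TPM, log axis) in replicate 1 (blue) and replicate 2 (orange), in order of mean level; filled circles are whole genes with 95% counting intervals, open triangles the longest protein-coding transcript that holds counts, and the dashed line marks 1 TPM. Car2 stands highest near 57.2 TPM and Gif lowest at 0.71 TPM, and the triangles of Atp4a fall to 0.50 and 0.30 TPM, below those of Gif in both libraries.

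The pump subunits were present at unequal levels. Atp4b, the beta subunit (ENSMUSG00000031449.9, mm10 chromosome 8, 13386205 to 13396825, minus strand), had 261 expected counts in replicate 1 and 274 in replicate 2. Its level was 12.61 TPM in replicate 1 and 12.47 TPM in replicate 2, the closest agreement of any member (12.5 ± 0.099 TPM, SD, n = 2). All its counts lay on the 1 annotated transcript of 7 exons. Atp4a, the catalytic alpha subunit (ENSMUSG00000005553.9, chromosome 7, 30712209 to 30725534, plus strand), had 38 counts in replicate 1 and 34 in replicate 2. Its level was 1.37 TPM in replicate 1 and 1.76 TPM in replicate 2 (1.56 ± 0.276 TPM). Per transcript length, Atp4b stood 9.20-fold above Atp4a in replicate 1 (95% counting interval 6.53 to 13.3) and 7.09-fold above it in replicate 2 (4.95 to 10.4). Both intervals lay far from 1, so the excess of the beta subunit transcript was larger than counting error in each library.

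That ratio was a lower estimate for the full-length alpha transcript, because few of the Atp4a counts made up most of its TPM. The transcript Atp4a-201, of 3498 nt and 22 exons, encodes the whole pump subunit and held 28.58 of the 38 counts in replicate 1 and 18.13 of the 34 in replicate 2. Its share of the gene's TPM was 36.31% in replicate 1 and 16.97% in replicate 2, and 17.85% and 10.07% by the authors' posterior means. Those means also gave 12.51% in replicate 1 and 6.37% in replicate 2 to Atp4a-204. That coding transcript, of 3447 nt and 22 exons, had 0 counts in both libraries, so part of the lower share is a split between long coding transcripts. Atp4a-202, a transcript of 738 nt annotated as retaining an intron, held 9.42 and 7.91 counts and took 63.69% of the TPM in replicate 1 and 39.39% in replicate 2. Atp4a-205, of 564 nt and annotated as a target of nonsense-mediated decay, had 0 counts in replicate 1 but 6.02 counts and 41.20% of the TPM in replicate 2. The full-length transcript alone stood at 0.50 TPM in replicate 1 and 0.30 TPM in replicate 2, under the threshold of 1 TPM. Against it, Atp4b was 25.2-fold higher in replicate 1 (17.1 to 38.4) and 41.6-fold higher in replicate 2 (25.8 to 71.2). With every Atp4a count placed on the full-length transcript, the ratio was 19.0 in replicate 1 and 22.4 in replicate 2.

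**Figure D2:**
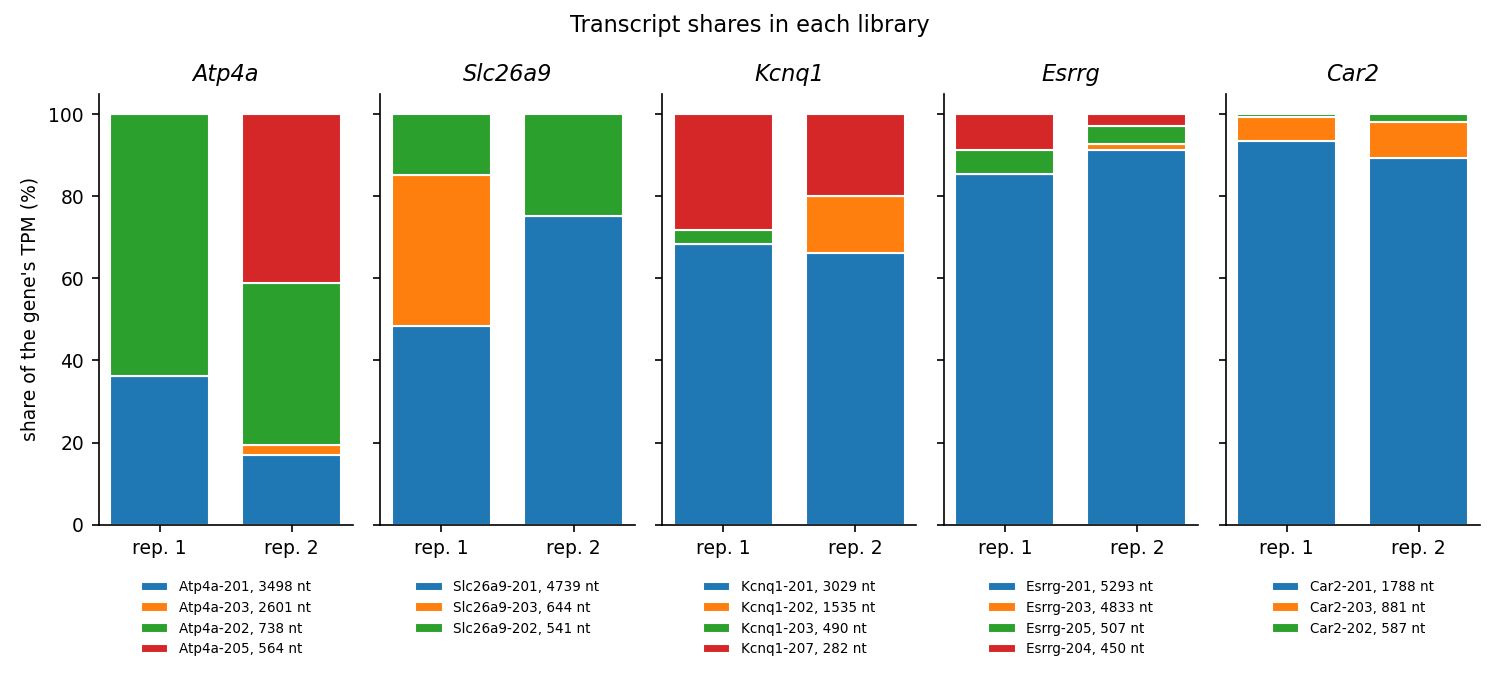
Share of each gene's TPM (%) assigned to its transcripts in replicate 1 (left bar) and replicate 2 (right bar) for the 5 genes with several expressed transcripts, each colour a transcript with its length in nt. Full-length Atp4a holds 36.31% and 16.97% and Slc26a9-201 holds 48.29% and 75.09%, whereas Esrrg-201 and Car2-201 keep 85.50% or more in both libraries.

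Among the related X,K-ATPase genes, Atp4b was a small part of the beta subunit transcripts. It made up 5.79% of the TPM of 5 beta subunits in replicate 1 and 6.46% in replicate 2, below Atp1b3 (127.11 and 117.51 TPM) and Atp1b1 (70.46 and 56.61 TPM). Atp12a, the catalytic subunit of the colonic proton pump, stood at 0.17 TPM in replicate 1 and 0.13 TPM in replicate 2, below Atp4a in both.

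The potassium channel pair was detected, with the accessory subunit lower than the pore. Kcnq1, the pore subunit (ENSMUSG00000009545.10, chromosome 7, 143106362 to 143427042, plus strand), had 159.33 counts in replicate 1 and 119.04 in replicate 2, or 4.57 and 3.06 TPM (3.82 ± 1.07 TPM). Its transcript of 3029 nt and 16 exons, Kcnq1-201, held 154.33 counts in replicate 1 and 106.02 in replicate 2, or 68.33% and 66.05% of the TPM. The authors' posterior means put its share at 45.52% in replicate 1 and 38.46% in replicate 2, and the mean level of the gene at 5.79 TPM. The gene holds the antisense RNA Kcnq1ot1 (143203458 to 143296549, minus strand), which had 8509.47 counts in replicate 1 and 9464.98 in replicate 2. Whether counting used strand is not given in the sources used here, so reads of Kcnq1 and Kcnq1ot1 that overlap cannot be told apart, and the level of Kcnq1 is uncertain to that extent. Kcne2, the subunit that keeps the channel open at acid pH (ENSMUSG00000039672.8, chromosome 16, 92292389 to 92298129, plus strand), had 45 counts in replicate 1 and 37 in replicate 2, or 1.68 and 1.30 TPM (1.49 ± 0.269 TPM). The ratio of Kcne2 to Kcnq1 TPM was 0.368 in replicate 1 (0.258 to 0.515) and 0.425 in replicate 2 (0.285 to 0.619). On the longest coding transcript of each it was 0.538 in replicate 1 and 0.644 in replicate 2, so Kcne2 remained below Kcnq1.

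Kcne2 has annotated starts at 2 positions, and their promoters are printed because the counts fell on only 1 of them. Every Kcne2 count, 45 in replicate 1 and 37 in replicate 2, was assigned to Kcne2-201 from the upstream start, and 0 to Kcne2-202 from the downstream start. The posterior means, which give some weight to every transcript, put 65.1% of the gene in replicate 1 and 66.0% in replicate 2 on the upstream transcript, so the split is an estimate. Sequences are from RefSeq on GRCm38.p6, plus strand, 250 bases before to 50 after the start. Capitals in all promoters below mark matches to the letters AAGGTNA, to the GATA-type letters AGATAA, and to the TATA-type letters TATAAA, on either strand. None of these matches overlap in the sequences printed.
Kcne2 upstream start (chr16:92292139-92292438): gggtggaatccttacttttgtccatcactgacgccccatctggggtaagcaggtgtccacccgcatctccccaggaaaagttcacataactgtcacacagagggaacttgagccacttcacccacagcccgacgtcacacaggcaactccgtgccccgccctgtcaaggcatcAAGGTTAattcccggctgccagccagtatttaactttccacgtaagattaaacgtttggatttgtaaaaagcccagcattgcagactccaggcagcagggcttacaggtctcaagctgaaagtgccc
Kcne2 downstream start (chr16:92295366-92295665): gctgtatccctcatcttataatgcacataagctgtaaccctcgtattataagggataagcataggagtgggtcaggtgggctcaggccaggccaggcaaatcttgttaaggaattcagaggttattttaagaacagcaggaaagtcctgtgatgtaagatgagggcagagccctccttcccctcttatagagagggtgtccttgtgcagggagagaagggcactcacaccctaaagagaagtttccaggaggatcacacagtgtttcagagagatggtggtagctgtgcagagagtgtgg

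Other potassium channel genes of the gastric epithelium and the KCNE family gave context. Of 12 such genes, Kcnq1 and Kcne2 counted in, 7 reached 1 TPM in both libraries. That threshold was met by 61.8% of all protein-coding genes. Counts near this share, here and in the lists below, are not particular to a list. Kcne2 was the fourth of the 5 KCNE genes by mean level and made up 2.88% of the family's TPM in replicate 1 and 2.11% in replicate 2. Kcne1l led it (35.33 and 39.97 TPM), followed by Kcne3 (14.72 and 15.28 TPM), which pairs with KCNQ1 in intestinal crypts. Kcne3 was 8.76-fold above Kcne2 in replicate 1 (6.34 to 12.3) and 11.8-fold above it in replicate 2 (8.29 to 17.1). Kcnj15, an inward rectifier of parietal cells, stood at 3.66 TPM in replicate 1 and 3.37 TPM in replicate 2, while Kcnj10, another, stood at 0.13 and 0.06 TPM. Kcnj16 was at 0 counts in both, a level that up to 3 counts per library could underlie.

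The chloride transporter Slc26a9, which mouse parietal cells need for acid secretion and tubulovesicles (ENSMUSG00000042268.6, chromosome 1, 131744022 to 131771504, plus strand), had 197 counts in replicate 1 and 149 in replicate 2. Its level was 4.66 TPM in replicate 1 and 2.32 TPM in replicate 2 (3.49 ± 1.65 TPM). The transcript of 4739 nt and 21 exons, Slc26a9-201, held 176.05 counts in replicate 1 and 144.44 in replicate 2, or 2.25 and 1.74 TPM. The short coding transcript Slc26a9-203, of 644 nt, held 15.83 counts and 36.98% of the TPM in replicate 1 but 0 counts in replicate 2. By TPM the gene was 2.01-fold higher in replicate 1, but by counts 1.34-fold (95% counting interval 1.08 to 1.67). Of 16 chloride and bicarbonate transporter genes, Slc26a9 included, 13 reached 1 TPM in both libraries. The basolateral anion exchanger Slc4a2 was highest on average, at 22.29 TPM in replicate 1 and 20.18 TPM in replicate 2. Slc26a7, another chloride transporter of parietal cells, stood at 4.46 and 4.80 TPM, and the sodium-proton exchanger Slc9a4 averaged 2.32 ± 0.962 TPM.

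Car2, the cytosolic carbonic anhydrase of parietal cells (ENSMUSG00000027562.8, chromosome 3, 14886273 to 14900770, plus strand), had 1642 counts in replicate 1 and 1550 in replicate 2, or 59.86 and 54.57 TPM (57.2 ± 3.74 TPM). Its transcript of 1788 nt, Car2-201, held 93.42% of the TPM in replicate 1 and 89.39% in replicate 2. Car2 made up 58.4% of the summed TPM of 16 carbonic anhydrase genes in replicate 1 and 58.7% in replicate 2. These genes were listed by family name, whatever the enzyme activity of their proteins. Car8 (8.87 and 6.56 TPM) and Car11 (6.83 and 7.82 TPM) came next, in opposite order in the libraries, and 9 of the 16 genes reached 1 TPM in both libraries. Car2 is also made by many cells other than parietal cells, red cells among them. The erythroid markers Hba-a2 (4750.16 and 4872.77 TPM) and Alas2 (21.40 and 19.02 TPM) were present, 8 of 10 erythroid markers reached 1 TPM in both libraries, and their summed level was 10700 TPM in replicate 1 and 11300 TPM in replicate 2. Car1, the other carbonic anhydrase of adult red cells, had 1 count in replicate 1 and 0 in replicate 2. The part of other cells in the level of Car2 was not tested.

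The water channel Aqp4, found on the basolateral membrane of parietal cells (ENSMUSG00000024411.9, chromosome 18, 15389496 to 15410982, minus strand), had 410 counts in replicate 1 and 390 in replicate 2, or 4.88 and 4.37 TPM (4.62 ± 0.361 TPM). It held 11.8% ± 1.13 of the TPM of 12 aquaporin genes, below Aqp3 (27.10 and 19.93 TPM) and Aqp11 (9.26 and 7.54 TPM). Only 4 of the 12 aquaporins reached 1 TPM in both libraries. AQP4 is also a protein of glia, and 5 of 6 glial markers reached 1 TPM, with summed levels of 99.2 TPM in replicate 1 and 95.3 TPM in replicate 2. Among them, Sox10 stood at 12.44 and 12.40 TPM and Gfap at 0.26 and 0.46 TPM. The part of glia in the level of Aqp4 was not tested.

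Clic6, or parchorin, a chloride intracellular channel protein first described in rabbit parietal cells (ENSMUSG00000022949.5, chromosome 16, 92485736 to 92541243, plus strand), had 612 counts in replicate 1 and 444 in replicate 2, or 9.92 and 6.78 TPM (8.35 ± 2.22 TPM). All its counts lay on the transcript Clic6-201 of 3758 nt, so no split between transcripts entered its TPM. It made up 6.08% of the TPM of 5 CLIC genes in replicate 1 and 4.69% in replicate 2, below Clic4 (77.74 and 70.19 TPM) and Clic1 (67.79 and 61.74 TPM). Clic6 and Kcne2 also mark the choroid plexus, whose other genes showed no uniform presence. Of those, Ttr stood at 18.49 TPM in replicate 1 and 15.32 TPM in replicate 2, whereas Otx2 had 0 counts in both. Of the 7 choroid plexus genes, 4 reached 1 TPM in both libraries, Clic6 and Kcne2 counted in.

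**Figure D3:**
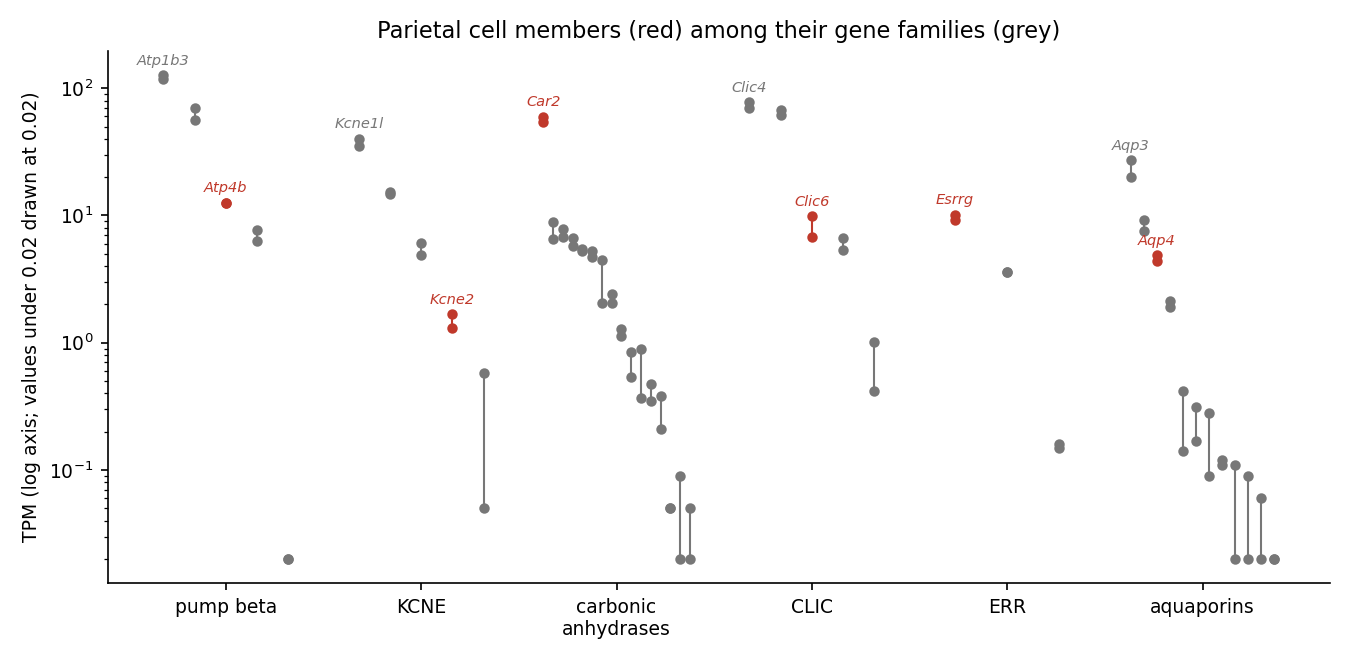
Level (TPM, log axis) of 6 members (red) and of the other genes of their families (grey) in both libraries, joined by a line, with the highest gene of each family named. Car2 and Esrrg lead their families, with 58.6% and 72.0% of the family TPM on average, and the other 4 members shown lie below the leading gene of theirs.

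Esrrg, an orphan nuclear receptor that in mouse drives parietal cell differentiation and its energy metabolism (ENSMUSG00000026610.9, chromosome 1, 187608791 to 188214885, plus strand), had 769 counts in replicate 1 and 797 in replicate 2. Its level was 10.15 TPM in replicate 1 and 9.21 TPM in replicate 2 (9.68 ± 0.665 TPM). It held 72.9% of the TPM of the 3 estrogen-related receptors in replicate 1 and 71.0% in replicate 2. Esrrg stood 2.81-fold above Esrra in replicate 1 (2.29 to 3.48) and 2.55-fold above it in replicate 2 (2.06 to 3.19), and Esrrb stayed at 0.16 and 0.15 TPM. The coactivators Ppargc1a (4.59 and 4.46 TPM) and Ppargc1b (3.04 and 2.89 TPM) were present. Of these 5 genes, 4 reached 1 TPM in both libraries. Genes within the Esrrg locus took few counts, among them the antisense gene 9330162B11Rik with 16 in replicate 1 and 27 in replicate 2.

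Esrrg counts were assigned almost wholly to transcripts from the downstream start. Transcripts from there, above all Esrrg-201 of 5293 nt, held 759.74 of the 769 counts in replicate 1 and 781.5 of the 797 in replicate 2. The 3 transcripts from the upstream start region held 9.26 counts in replicate 1 and 15.5 in replicate 2. By TPM these few counts came to 14.5% of the gene in replicate 1 and 8.67% in replicate 2, because 2 of the 3 transcripts are short. The promoters at both ends are printed to show what the start carrying the counts looks like beside the other.
Esrrg upstream start (chr1:187608756-187609055): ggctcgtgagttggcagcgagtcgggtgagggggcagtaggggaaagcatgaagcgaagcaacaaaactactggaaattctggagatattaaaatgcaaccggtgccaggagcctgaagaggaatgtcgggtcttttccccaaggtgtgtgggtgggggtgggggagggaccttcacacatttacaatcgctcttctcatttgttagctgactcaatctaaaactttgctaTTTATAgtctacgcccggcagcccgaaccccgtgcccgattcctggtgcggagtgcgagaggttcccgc
Esrrg downstream start (chr1:187997577-187997876): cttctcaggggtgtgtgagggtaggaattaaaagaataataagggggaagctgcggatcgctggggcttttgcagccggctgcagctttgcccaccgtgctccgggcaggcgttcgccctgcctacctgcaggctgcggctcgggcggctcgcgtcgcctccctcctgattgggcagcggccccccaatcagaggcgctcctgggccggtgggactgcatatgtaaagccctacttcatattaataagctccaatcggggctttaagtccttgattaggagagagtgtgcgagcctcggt

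The Atp4a promoter is printed for the gene whose full-length transcript was lowest.
Atp4a start (chr7:30711959-30712258): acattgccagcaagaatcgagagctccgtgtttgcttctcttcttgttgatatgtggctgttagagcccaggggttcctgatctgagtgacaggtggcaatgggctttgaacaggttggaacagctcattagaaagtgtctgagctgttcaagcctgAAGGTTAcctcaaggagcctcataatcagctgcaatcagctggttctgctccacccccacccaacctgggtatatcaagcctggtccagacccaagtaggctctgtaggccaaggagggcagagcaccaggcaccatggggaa
RefSeq promoters were found for 5 members (Atp4a, Gif, Kcne2, Slc26a9 and Esrrg), 9 windows of 300 bases in all. The letters AAGGTCA, part of the extended site that estrogen-related receptors bind, were in 0 of the 9 windows. They were in 4.72% of all 32851 promoters of the same length, on either strand. A looser form, AAGGTNA, whose letters were chosen after these promoters had been read, was in 4 of the 9 windows and in 13.7% of all promoters. Counted in bases from the annotated start, it began at -93 for Atp4a, at -125 for Gif and at -77 for the upstream start of Kcne2, and it lay in 1 Esrrg window not printed. AGATAA, a form of the GATA site, was in 1 of the 9 windows, that of Slc26a9, and in 11.2% of all promoters. TATAAA was in 2 windows, those of Slc26a9 and the Esrrg upstream start, and in 13.6% of all promoters. These matches describe letters only.

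Gif, which encodes gastric intrinsic factor (now Cblif), the carrier of vitamin B12, was the lowest member. In mouse it is a product of chief cells, while human parietal cells make it. Gif (ENSMUSG00000024682.3, chromosome 19, 11747554 to 11763447, plus strand) had 24 counts in replicate 1 and 11 in replicate 2, or 0.99 TPM (counting interval 0.634 to 1.47) and 0.43 TPM (0.215 to 0.769). Its mean was 0.71 ± 0.396 TPM. Of 7 chief cell genes, 3 reached 1 TPM in both libraries, led by the prochymosin gene Cym (2151.76 and 1926.79 TPM), then the pepsinogen gene Pgc (33.37 and 26.79 TPM) and Pga5 (10.77 and 7.55 TPM). Among genes of vitamin B12 handling, 4 of 8 reached the threshold. The transcobalamin Tcn2 stood at 32.22 TPM in replicate 1 and 28.75 TPM in replicate 2, and the intrinsic factor receptor genes Cubn and Amn lay at or below 0.07 TPM in both.

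Stimulus and trafficking genes of acid secretion were described as lists beside the members. Of 13 receptors and signals, 7 reached 1 TPM in both libraries. The histamine receptor Hrh2 stood at 0.26 TPM in replicate 1 and 0.17 TPM in replicate 2, and the gastrin receptor Cckbr at 0.67 and 0.66 TPM. The muscarinic receptor Chrm3 reached 3.55 TPM in replicate 1 and 3.81 TPM in replicate 2, and gastrin itself, Gast, 10.02 and 5.11 TPM. The stomachs also held smooth muscle, whose 6 markers summed to 3830 TPM in replicate 1 and 3610 TPM in replicate 2. Which cells made these receptors was not tested. Of 15 genes of tubulovesicle traffic, 14 reached the threshold, among them Rab11a (296.10 and 283.07 TPM), Ezr (151.29 and 129.34 TPM) and Rab25 (51.66 and 42.02 TPM), genes that many epithelial cells express. Of 14 genes listed for the parietal cell, the pump subunits counted in, 13 reached it, although several of these, such as Cox8a (802.86 and 851.10 TPM), are expressed widely. Of 7 pit and neck cell genes, 4 did, led by Tff1 (99.84 and 101.57 TPM).

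Most of the members were somewhat higher in replicate 1. Ratios of replicate 1 over replicate 2 were taken from counts scaled to library size, as log2 values, with an exact counting interval. By this measure 8 of 10 members were higher in replicate 1 and the median of their log2 ratios was 0.24, against 50.8% of the 17510 genes whose counts averaged at least 10, with a median of 0.003 over those genes. Only Gif was over 2-fold apart, at 2.16-fold (1.04 to 5.01), while 3.6% of the 17510 genes were over 2-fold apart and 1.88% were so with replicate 1 higher. The counting interval excluded 1 for 4 members, Gif, Kcnq1 (1.36-fold, 1.06 to 1.74), Slc26a9 (1.34-fold) and Clic6 (1.40-fold, 1.24 to 1.59). The share of all genes with such an interval was not computed, so this count does not set the members apart. That of Car2 (1.08-fold, 1.00 to 1.15) began at 1 within rounding. Atp4b (log2 ratio -0.05, interval -0.30 to 0.20) and Esrrg (-0.03, -0.17 to 0.12) did not differ beyond counting error, and scaling on spike-ins turned both to higher in replicate 1 (0.22 and 0.24).

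Counting error is not the whole spread, so each ratio was also set beside genes of like abundance, those with a mean count within 2-fold of the member's. For Clic6 the central 95% of 4997 such genes ran from -0.33 to 0.36 on the log2 scale, and its own ratio of 0.48 lay outside. For Gif the range was -1.76 to 1.83, which held its ratio of 1.11. The ratios of Kcnq1 (0.44) and Slc26a9 (0.42) lay inside their ranges of -0.61 to 0.71 and -0.56 to 0.64. Clic6 was thus the only member outside the range of its abundance class. The 8 epithelial markers were all higher in replicate 1 (median 0.12 on the log2 scale), and so were 11 of the 12 pancreas markers that averaged at least 10 counts (median 3.99). Pancreas genes such as Ptf1a (99 counts in replicate 1 and 0 in replicate 2) were thus also higher in replicate 1. With 2 libraries a joint change cannot be seen, and their part in the members' difference was not tested.

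**Figure D4:**
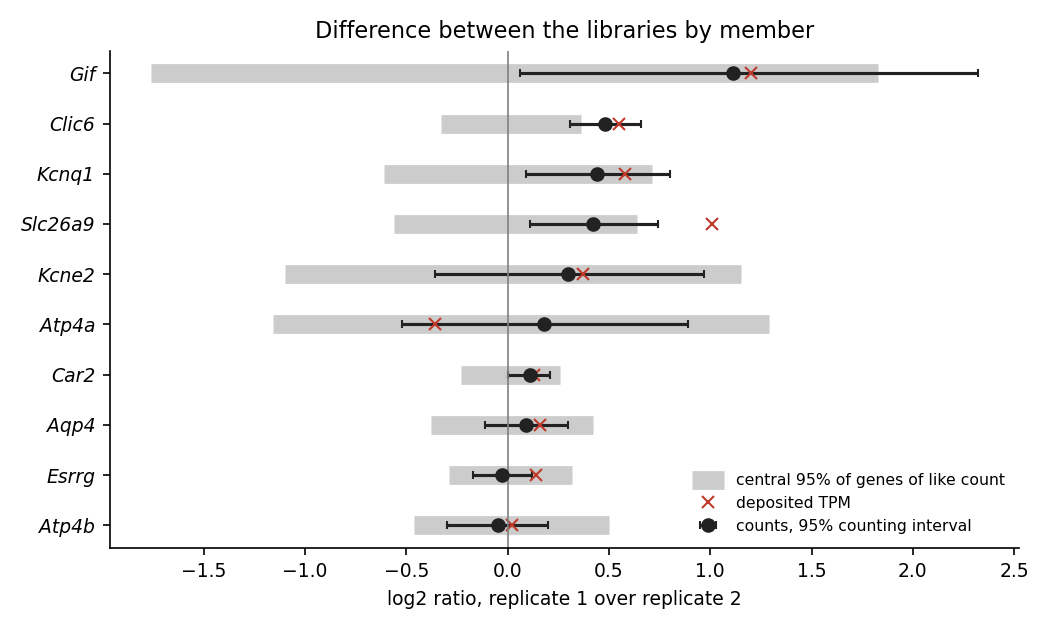
Log2 ratio of replicate 1 over replicate 2 for each member: black points are count ratios with 95% counting intervals, red crosses the ratio of the deposited TPM, and grey bars the central 95% of genes of like count. Only the black point of Clic6, at 0.48, lies outside its grey bar, and the crosses of Atp4a (-0.36) and Slc26a9 (1.01) lie far from their points at 0.18 and 0.42.

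The difference depended on the unit most for Atp4a and Slc26a9. Atp4a had slightly more counts in replicate 1 (log2 count ratio 0.18, interval -0.52 to 0.89) but the lower TPM there (log2 TPM ratio -0.36). The effective length that divides its counts was 1641 nt in replicate 1 and 1081 nt in replicate 2. For Slc26a9 it was 2507 nt in replicate 1 and 3594 nt in replicate 2, and the log2 ratio was 0.42 by counts and 1.01 by TPM. The other members differed by at most 0.17 between both measures. Among them, Atp4b (-0.05 by counts, 0.02 by TPM) and Esrrg (-0.03 by counts, 0.14 by TPM) also changed sign. TPM counts in spike-ins, whose share was 12.1% in replicate 1 and 14.2% in replicate 2. The larger spike-in share leaves a smaller TPM total for genes in replicate 2. For the 9 members other than Atp4a, TPM was higher in replicate 1, and on the longest coding transcript all 10 were. The share of all genes higher in replicate 1 by TPM was not computed, so these counts do not set the members apart.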

How the data were processed

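The authors deposited, for each of the 2 libraries, a table of genes and a table of transcripts on genome build mm10 with annotation GENCODE M4, per the deposited notes. The deposited expected counts are read numbers estimated by the authors, which need not be whole, the deposited TPM values are scaled by the authors over all entries with spike-ins counted in, and the deposited percent values express each transcript's TPM relative to its gene. Neither the aligner nor the counting program is named in those notes or the labels, and the use of strand is not given in the sources. RNA was extracted with a mirVana kit, RNAs over the labels' size limit were kept, and a Smart-seq protocol was linked, per the labels. Deposited FPKM values were not used.

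Members were matched by Ensembl identifier to symbols and mm10 positions of GENCODE M21, and 42462 of 43346 identifiers had a symbol. The 26248 numbered entries (15.47 counts in replicate 1 and 25 in replicate 2) and 97 spike-in entries stayed out of library sizes. Levels are TPM, as mean ± SD (n = 2) where given, and detection means TPM 1 or more in both libraries. Ratios used counts plus 0.5, TMM library sizes (edgeR 4.0.16, R 4.3.3) and exact 95% binomial intervals. Intervals of levels and pair ratios are exact Poisson or binomial ones on the expected counts. These intervals cover counting error only, since PCR reads are not independent molecules. The ratio procedure was tested on simulated data. Scaling on spike-ins moves every log2 ratio by 0.269. No p-value was computed, as there is 1 group.

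The members and gene lists were chosen with earlier results of these data known. All members are named, then listed genes at 1 TPM or more in both libraries, family members and overlapping genes. Other genes (among them Hrh2, Cckbr, Cubn, Amn, Gfap, Otx2 and Ptf1a) were named after their values were seen. The longest coding transcript is the longest protein-coding one with counts. Alternatives were DESeq2 1.42.0 size factors, spike-in scaling, TPM ratios, other thresholds and pseudocounts, posterior mean levels, levels recomputed after removal of spike-ins and mitochondrial genes, and the use of a single library. The alternatives on the longest coding transcript were added after the data were seen. Other tools were matplotlib 3.10.9, scipy 1.17.1, pandas 2.3.3 and numpy 2.4.6 under Python 3.11.15. Some genes of the members' families are not reported here.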

Additional observations from a re-analysis of the deposited data

How the results depend on the processing

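Of 173 alternative values over 35 results, 137 were rated within the spread of the main value, 36 beyond it and 0 changed the sign of a ratio whose interval excluded 1. A level, pair ratio or share from 1 library alone lies within the SD (n = 2) by construction. Such values count among the 137 but cannot show stability. The numbers of members detected, 7 to 10 under the alternatives against 9, also count among the 137, although each single library gave 9. A wider gap between the libraries also lets more alternatives stay within the spread. The median level of the members was 4.24 TPM, against 5.17 TPM by posterior means and 5.08 TPM after removal of spike-ins and mitochondrial genes. The number of members over 2-fold apart was 1, and became 2 by deposited TPM and 0 with a pseudocount of 5 or a mean count of 100 or more. The ratio of Atp4b to Atp4a was 8.14 on average, 33.4 on the longest coding transcript and 20.7 with all counts on it. The ratio of Kcne2 to Kcnq1 was 0.396, and 0.265 by posterior means, 0.591 on the longest coding transcript and 0.546 with all counts on it. The Car2 share of carbonic anhydrase TPM was 58.6%, and 55.7% by posterior means. The members detected numbered 9, and 7 at a threshold of 2 TPM, 10 at an expected count of 10 or more in both libraries and 8 on the longest coding transcript. In the single libraries Atp4b over Atp4a was 9.20 and 7.09 and Kcne2 over Kcnq1 was 0.368 and 0.425, the values averaged above. No paired analysis was possible because there is 1 group and no second condition. With 1 library on each side of a ratio, no test across genes was run. The counts of Atp4a, Gif and Kcne2, between 11 and 45 per library, limit what their levels and transcript shares can show.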

Other observations

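The receptor for cholecystokinin Cckar was far above the gastrin receptor Cckbr, at 14.78 and 6.77 TPM against 0.67 and 0.66 TPM, a ratio of 22.1 in replicate 1 (95% counting interval 14.8 to 34.3) and 10.3 in replicate 2 (6.97 to 15.7). Cckar was 2.09-fold higher in replicate 1 by counts (705 in replicate 1 and 343 in replicate 2). The summed level of the pancreas markers was also higher there (681 TPM in replicate 1 and 51.6 TPM in replicate 2), and their part in the level of Cckar was not tested.

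The gap between the ratio by counts and the ratio by deposited TPM, seen in Atp4a (0.54) and Slc26a9 (0.59), was measured over the 17510 genes that averaged at least 10 counts. Of these, 350 (2.0%) had the log2 ratios over 0.5 apart, and 153 of these (0.874% of all) had opposite signs. The median gap was 0.064. By counts 631 genes were over 2-fold apart between the libraries, and by TPM 680 were.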
